A study of Caenorhabditis elegans with 2 samples.

Results

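EOR-1 binding was measured by chromatin immunoprecipitation and sequencing (ChIP-seq) in whole Caenorhabditis elegans, and the peaks at 10 genes of the Mediator complex are described here. The genes were dpy-22, let-19, cdk-8, cic-1, sur-2, lin-25, mdt-15, mdt-27, rgr-1 and mdt-26, out of 19865 protein-coding genes on the nuclear chromosomes. They were chosen by name and from earlier results of these data, in which sur-2, dpy-22, mdt-26 and mdt-27 had a peak among the 1000 strongest. Their peak counts and ranks are therefore a description with no test. A peak was assigned to a gene when its summit lay inside the gene or within 2000 bp of one of its transcript starts. By this rule 10 of the 6708 peaks in the list called on pooled reads belonged to the 10 genes.

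The only group was animals of strain OP81, with the genotype unc-119(ed3) III and the transgene wgIs81, collected as L3 larvae with males and females together. The labels give the insertion as one that targets eor-1 and describe the immunoprecipitation as directed at eGFP-tagged EOR-1, while the antibody target is named only as eor-1. Both replicates share the transgene and the mutant unc-119 background. The promoter of the transgene is not stated, and the labels give age as unknown. There were 2 biological replicates of whole animals, so all tissues are mixed. The files used here hold peaks only, so read depth is unknown. Replicate 1 had 2488 peaks, replicate 2 had 2610, and 33 pooled peaks passed a filter on the irreproducible discovery rate (IDR), a score of how similarly replicates rank a peak, and are called thresholded here. The unthresholded lists hold background as well as peaks, so an entry in them is a candidate and not a called binding site. Each peak has a signal value given by the authors' peak caller, which ranks peaks within a list only, with rank 1 the strongest. Peaks of equal signal value share the best rank of the tie.

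Mediator is a large protein complex that connects sequence-specific transcription factors with RNA polymerase II. It consists of head, middle and tail modules and a separable kinase module of a cyclin-dependent kinase, its cyclin and a pair of large subunits. In C. elegans the tail subunits SUR-2 and LIN-25 are known from genetics as factors needed for vulval induction downstream of Ras. EOR-1, a zinc finger protein related to human PLZF, is likewise known as a nuclear factor of Ras and Wnt signalling. These genetic links are background and were not measured here.

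The sequences at the strongest peaks of dpy-22, mdt-26 and mdt-27 are shown because these 3 genes had the best ranks outside sur-2 and each held at least 1 of the GA-rich motifs counted below. Each is the RefSeq WBcel235 (ce11) sequence from 140 bases before to 140 after the pooled summit, 281 bases in all, on the strand of the gene. Capitals mark exact matches on either strand to GAGAGA or GACGCAG. The dpy-22 window is chrX:9822580-9822860, minus strand. The mdt-26 window is chrII:5661675-5661955, plus strand, and the mdt-27 window is chrV:9212615-9212895, minus strand.
dpy-22: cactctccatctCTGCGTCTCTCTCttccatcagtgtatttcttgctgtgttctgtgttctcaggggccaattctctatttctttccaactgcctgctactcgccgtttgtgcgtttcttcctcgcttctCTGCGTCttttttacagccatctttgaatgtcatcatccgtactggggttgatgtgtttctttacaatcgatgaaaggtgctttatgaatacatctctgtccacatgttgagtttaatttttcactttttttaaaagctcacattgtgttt
mdt-26: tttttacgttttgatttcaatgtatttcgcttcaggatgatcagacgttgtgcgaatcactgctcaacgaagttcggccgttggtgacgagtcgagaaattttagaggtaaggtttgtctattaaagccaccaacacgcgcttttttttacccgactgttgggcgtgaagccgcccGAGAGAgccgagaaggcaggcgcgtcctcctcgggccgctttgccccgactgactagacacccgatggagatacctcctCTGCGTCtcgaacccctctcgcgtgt
mdt-27: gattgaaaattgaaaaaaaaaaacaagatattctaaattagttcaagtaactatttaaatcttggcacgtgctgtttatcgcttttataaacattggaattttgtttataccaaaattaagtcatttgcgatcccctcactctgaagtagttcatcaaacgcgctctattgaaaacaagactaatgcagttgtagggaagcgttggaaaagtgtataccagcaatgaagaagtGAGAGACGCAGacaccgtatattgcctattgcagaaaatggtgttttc

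At dpy-22 and at mdt-27 a GAGAGA and a GACGCAG overlapped by 2 bases on the same strand and formed 1 run of capitals. At dpy-22 that run lay upstream of a second, separate GACGCAG, and both are printed as their reverse complement because they lie on the strand opposite to the gene. At mdt-26 the motifs were apart, with GAGAGA on the gene's strand and GACGCAG on the other.

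**Figure D1:**
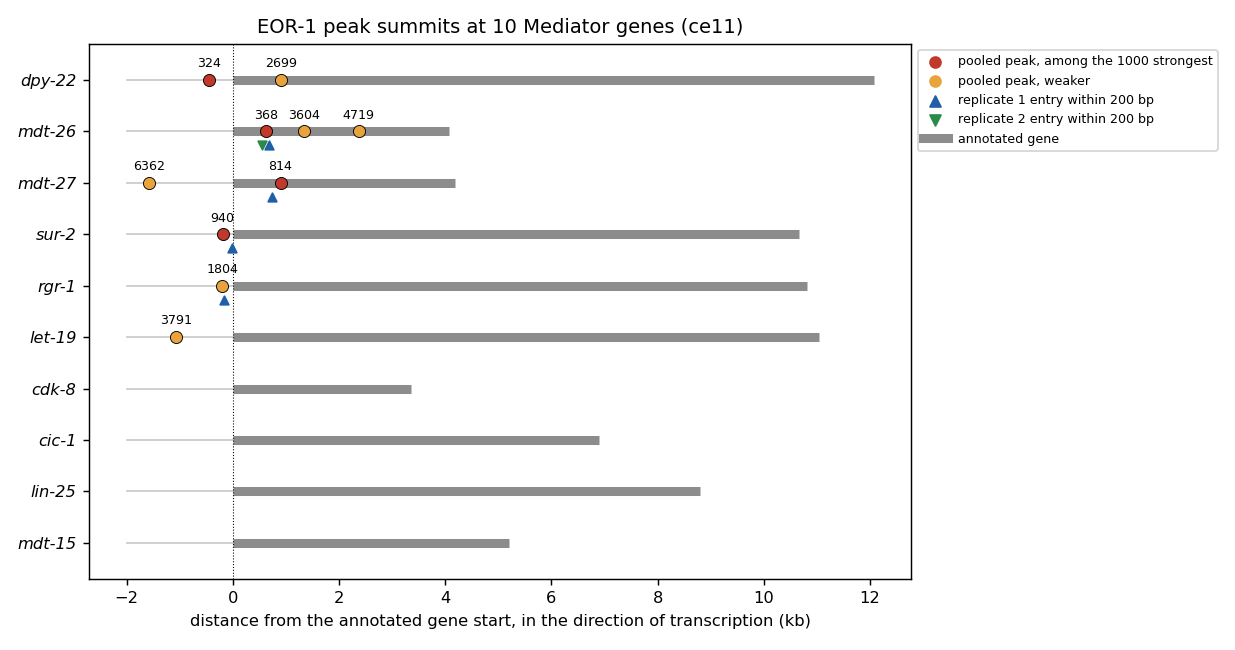
Positions of EOR-1 peak summits at the 10 Mediator genes, as distance from the annotated gene start in kb along the direction of transcription. Grey bars are genes, circles are pooled summits with their rank (red among the 1000 strongest, orange weaker), and triangles are replicate entries within 200 bp of a pooled summit. 6 genes have a pooled peak, and mdt-26 alone has entries of both replicates beside its strongest one.

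Of the 10 genes, 6 had a pooled peak and 4 had none. The 6 were dpy-22, let-19, sur-2, mdt-27, rgr-1 and mdt-26 (60%, exact Clopper-Pearson 95% interval 26.2 to 87.8), and the same rule gave a pooled peak to 28.6% of all protein-coding genes. Long genes meet the rule more often, and these genes were long, with a median span of 7844 bp against 2032 bp over all protein-coding genes. Among the 5577 protein-coding genes at least as long as the shortest of the 10, which is cdk-8 at 3360 bp, 41.3% had a pooled peak. Those among the 1000 strongest were found at 4 of the 10, namely sur-2, mdt-26, mdt-27 and dpy-22, against 5.85% of all genes and 8.88% of the long ones. These 4 are the genes that the earlier result named, so the count repeats the choice of genes. The intervals cover the counting of genes only.

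Support from the single replicates was lower. A pooled summit was taken as supported when a replicate entry had its summit within 200 bp. At least 1 replicate supported a peak at mdt-26, mdt-27, sur-2 and rgr-1, which is 4 of 10 genes (40%), against 16.9% of all protein-coding genes. Both replicates supported a peak at mdt-26 only, 1 of 10 (10%, interval 0.253 to 44.5), against 3.18% of all genes. Shares among the long genes alone were not counted for support or for entries in a single replicate. Of the supported genes, mdt-26, mdt-27 and sur-2 were chosen with a peak among the 1000 strongest known. Of those 1000 pooled peaks only 4.5% had support in neither replicate and 42.8% had it in both, so these counts partly repeat the choice of genes. None of the 10 genes had a peak in the thresholded list (0 of 10, upper exact bound 30.8%), against 0.201% of all genes. The weakest of the thresholded peaks had a signal value of 19.3, and the strongest peak at the 10 genes had 9.71.

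The kinase module was represented by dpy-22, the worm MED12, which is known as a regulator of Wnt-dependent patterning. It spans 12072 bp on the X chromosome (9810202 to 9822273, minus strand). Its stronger peak (9822518 to 9822921) ranked 324 of 6708, within the strongest 4.83% of the list, with a signal value of 9.71 and the maximum q-value score of the list. The summit lay 447 bp upstream of the single annotated start, in intergenic sequence, and no other protein-coding gene had a start within 2000 bp. The nearest entry of replicate 1 was 31152 bp from this summit and that of replicate 2 was 36563 bp away, so the best-ranked peak at these genes appeared in the pooled list alone. Of the 300 pooled peaks ranked 201 to 500, 9 (3%, interval 1.38 to 5.62) had no support within 200 bp, and 3 had no replicate entry within 2000 bp, of which this was 1. A second dpy-22 peak lay in a coding exon 901 bp downstream of the start, ranked 2699 with a signal value of 3.47, and likewise had no replicate entry nearby.

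The other kinase module genes had weaker candidates or none. For let-19, the worm MED13 (chromosome II, 8770975 to 8782020), the single peak ranked 3791 with a signal value of 2.93 and lay in intergenic sequence 1062 bp upstream of the start, with no support in either replicate. Of the window around that summit 19.9% was G or C, the lowest share at the 10 genes. For cdk-8, which encodes the kinase (8702466 to 8705825 on the first chromosome), the nearest pooled summit was 6244 bp upstream of the start and ranked 1609. For cic-1, which encodes cyclin C (chromosome III, 2394325 to 2401221), it was 17289 bp upstream and ranked 3246.

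Among the tail genes, sur-2, the worm MED23, had a peak just upstream of its start that was supported by replicate 1. The gene spans 10668 bp (14777137 to 14787804, minus strand, chromosome I) and the peak covered 14787794 to 14788197. The pooled rank was 940 with a signal value of 6.06, and the summit lay 192 bp upstream of the nearest of 2 starts. In replicate 1 the entry ranked 302 of 2488 with a signal value of 5.75, closer to the start than the pooled one, with a summit 21 bp upstream of the start and 171 bp from the pooled summit. In replicate 2 there was no entry within 200 bp, and the nearest was 28460 bp from the pooled summit. This put the sur-2 peak at 14.01% of the pooled list and at 12.1% of the shorter list of replicate 1, whose reads the pooled list includes. The rule also gave this peak to F39B2.3, a gene upstream on the same strand whose start lay 1521 bp from the summit.

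Of the further subunit genes, mdt-27, which encodes MED27 (chromosome V, 9209463 to 9213654), had its stronger peak in an intron, 899 bp downstream of the start, with a rank of 814 and a signal value of 6.495. Replicate 1 supported it with an entry of rank 1840, within the weaker part of its list (73.95% of the way down), 154 bp from the pooled summit. Replicate 2 had no entry within 200 bp. A second mdt-27 peak, 1570 bp upstream in a coding exon of the neighbour pacs-1, ranked 6362 with a signal value of 2.12 and was the farthest from a start among those upstream of the 10 genes. No pooled peak was assigned to lin-25, the worm MED24 and a partner of sur-2 in genetics (chromosome V, 12649925 to 12658714, plus strand), whose nearest summit was 11524 bp upstream with a rank of 5656. None was assigned to mdt-15 either (chromosome III, 5828557 to 5833751), which encodes a subunit known for the control of lipid metabolism genes. A pooled summit of rank 2031 and signal value 4.04 lay 2693 bp upstream of mdt-15, just outside the distance allowed. The nearest entry to an mdt-15 start was 6534 bp away in replicate 1 and 7648 bp away in replicate 2. None of the 4 genes without a pooled peak had an entry in a replicate list either.

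The scaffold subunit gene rgr-1, the worm MED14 (chromosome III, 9393730 to 9404541), had 1 peak 196 bp upstream of a start in intergenic sequence. It ranked 1804 with a signal value of 4.38, the first of these genes outside the 1000 strongest, where sur-2 was the last inside. Replicate 1 had an entry 25 bp from the pooled summit, at rank 1253, while in replicate 2 the nearest was 27402 bp away. The rgr-1 peak lay between divergent genes, with the start of gpr-2, a regulator of G protein signalling at the mitotic spindle, 370 bp from the summit on the other strand. In rgr-1, 7.60% of the 31-base words in the 201 bases around the summit occurred elsewhere in the genome, while at the other 9 peaks every such word occurred once.

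The peak at mdt-26, which encodes MED26, was the one found in both replicates. The gene lies on chromosome II (5661181 to 5665243, plus strand), and the peak covered 5661613 to 5662016, in an intron 621 bp downstream of the nearer of 2 starts. The same summit lay 1029 bp upstream of ift-43, an intraflagellar transport gene on the other strand, so the rule also gave this peak to ift-43. It ranked 368 in the pooled list with a signal value of 9.16. In replicate 1 the entry ranked 231 with a signal value of 6.35, and in replicate 2 it ranked 1022 of 2610 with a signal value of 3.10. The summits of the replicate entries lay 57 bp and 75 bp from the pooled one, on opposite sides of it, at 678 bp and 546 bp from the start. As a share of each list the mdt-26 entry stood at 5.49% in the pooled list, 9.28% in replicate 1 and 39.2% in replicate 2, so replicate 2 placed it lower. A further pair of mdt-26 peaks ranked 3604 and 4719 with signal values of 2.99 and 2.74 and had no entry of a replicate within 200 bp. The G and C share around the strongest mdt-26 summit was 55.7%, the highest at these genes, against a median of 45.3% for pooled peaks of rank 201 to 500.

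**Figure D2:**
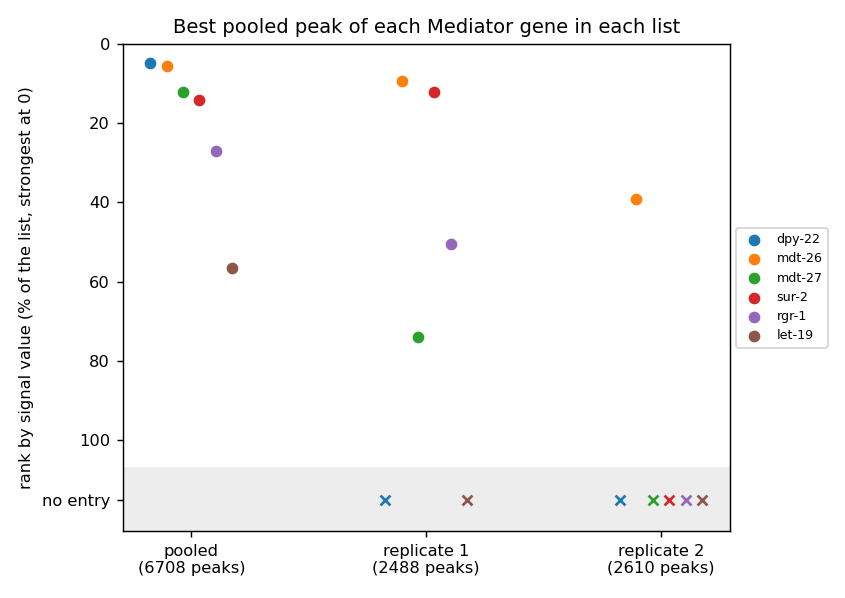
Rank of the best pooled peak of each Mediator gene in the pooled list and of the supporting entry in each replicate, as a percentage of the list with the strongest at 0. Circles are entries and crosses mark no entry within 200 bp; replicate 1 holds 4 of the 6 genes and replicate 2 holds mdt-26 alone.

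The replicates differed in which of the 10 genes they listed. By the same rule, replicate 1 on its own gave an entry to mdt-26, mdt-27, sur-2 and rgr-1, 4 of 10 genes, against 12.7% of all protein-coding genes. That count too partly repeats the choice of genes, and the share beside it is not limited to long genes. Replicate 2 gave an entry to mdt-26 alone, 1 of 10, against 13.2% of all genes. Over the 1000 strongest pooled peaks, 32.4% had support in replicate 1 only, 20.3% in replicate 2 only and 42.8% in both. Whether the replicates differ at the Mediator genes was not tested, since 1 library stands for each.

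The motifs were not used to assign peaks, although they were picked with earlier results of these data known. GAGAGA is the core of a GAGA-type repeat, and GACGCAG is part of the words that were most over-represented in strong peaks in those results. Within 100 bp of the summit, GAGAGA was matched at 3 of the 10 peaks (30%, interval 6.67 to 65.2), at mdt-26, mdt-27 and sur-2, against 45.7% of the 1000 strongest pooled peaks and 26.9% of all pooled peaks. GACGCAG was matched at 1 of the 10, the stronger dpy-22 peak (10%, interval 0.253 to 44.5), against 18.3% of the 1000 strongest and 8.07% of all. These intervals are wide, and the shares were not compared by a test.

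Within 100 bp of the summit, the 4 Mediator peaks among the 1000 strongest each had a match to at least 1 motif, against 52.9% of those 1000 pooled peaks. The 6 weaker Mediator peaks had none, against 26.7% of the 5708 weaker pooled peaks with a match. The share was 39.1% in ranks 1001 to 2000, which hold the rgr-1 peak, and 27.2% in ranks 2001 to 4000, which hold the let-19 peak, the weaker dpy-22 peak and the mdt-26 peak of rank 3604. It was 21.1% in ranks 4001 to 6708, which hold the weakest peaks of mdt-26 and mdt-27. The split was noticed in these few peaks and was not tested. It did not hold at the other Mediator genes described below. There the mdt-4 peak (rank 727) had no match, while weaker peaks of sop-3 (rank 4797), mdt-19 (rank 2616) and mdt-22 (rank 3744) had at least 1. Of the 11 peaks at those genes, 2 had GAGAGA and 2 had GACGCAG, against 26.9% and 8.07% of all pooled peaks. At dpy-22 the GACGCAG was centred 7 bp from the summit. At mdt-26 GAGAGA was centred 39 bp downstream of the summit and GACGCAG 118 bp downstream, outside the counted window. At mdt-27 GAGAGA was centred 95 bp downstream and the GACGCAG that overlaps it 100 bp downstream, so the end of that GACGCAG fell outside the window and was not counted. At sur-2 there were 2 overlapping GAGAGA matches, centred 76 bp and 78 bp from the pooled summit on the side of the start, between the pooled summit and that of replicate 1.

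**Figure D3:**
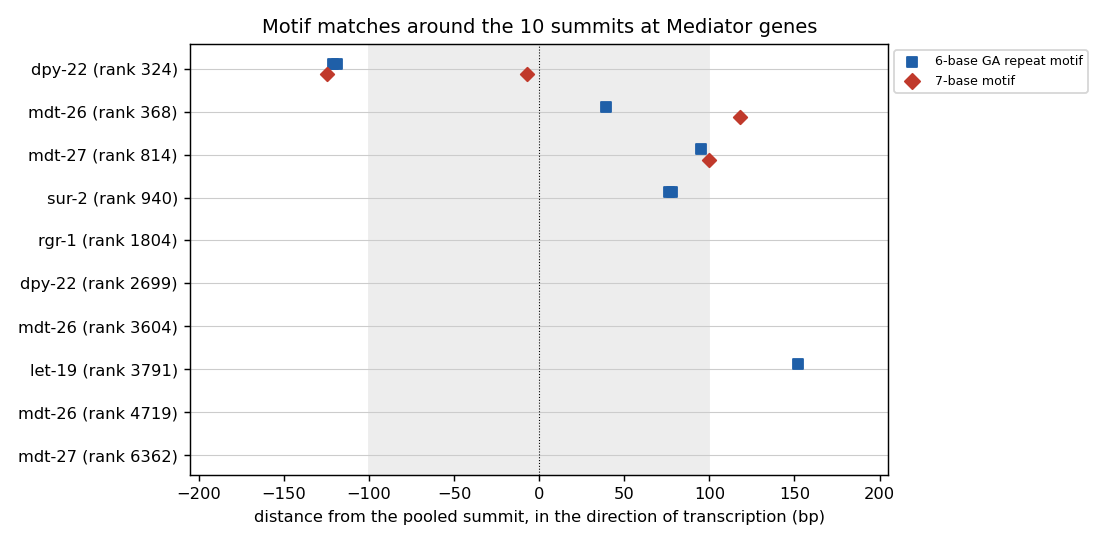
Matches to GAGAGA (squares) and GACGCAG (diamonds) within 200 bp of each of the 10 pooled summits, as distance from the summit in bp along the gene. The grey band is the 100 bp window in which whole matches were counted, which leaves out the mdt-27 diamond at its edge. Counted matches belong to sur-2, dpy-22, mdt-26 and mdt-27.

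Positions relative to the genes varied. Of the 10 peaks, 5 lay inside the gene they were assigned to and 5 upstream of its start. By gene part, 4 summits were intergenic, 3 were in introns and 3 in coding exons, 1 of them that of pacs-1. The gene's own start was the nearest protein-coding start for 9 of the 10, the exception being the weakest mdt-26 peak, which lay 1775 bp upstream of C25H3.15.

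The other subunits of the complex came from a list of 20 symbols, of which 19 matched the annotation. They had fewer strong peaks than the 10 genes. That contrast was not tested because sur-2, dpy-22, mdt-26 and mdt-27 were chosen with their strong peaks known. A pooled peak was assigned to 10 of the 19 (52.6%, interval 28.9 to 75.6), against 28.6% of all protein-coding genes. Only mdt-4 had one of the 1000 strongest, 1 of 19 (5.26%, interval 0.133 to 26.03), near the 5.85% of all genes. The mdt-4 peak lay in an intron 1400 bp downstream of the start, ranked 727 with a signal value of 6.82, and was nearer to the start of ZK546.19. Its closest replicate entry was 299 bp away in replicate 2, beyond the distance counted as support. The remaining 9 genes with a peak were sop-3 (rank 4797), mdt-1.2 (rank 5498), mdt-6 (rank 2029), mdt-9 (rank 3461), mdt-17 (rank 3263), mdt-18 (rank 5110), mdt-19 (rank 2616), mdt-22 (rank 3744) and mdt-28 (rank 3263), against a median best rank of 2813 over the 5675 protein-coding genes with a pooled peak. Some of these ranks are ties. The signal value at mdt-17 and mdt-28 was held by 139 pooled peaks, that of the better mdt-22 peak by 47 and that at mdt-18 by 34. Support came from 1 replicate at mdt-1.2, mdt-17 and mdt-28. It came from both at 0 of 19 (upper exact bound 17.6%), against 3.18% of all genes. On its own, replicate 1 gave an entry to mdt-17 alone (5.26%), against 12.7% of all genes. Replicate 2 gave one to 5 of the 19 (26.3%), mdt-1.2, mdt-4, mdt-8, mdt-18 and mdt-28, against 13.2% of all genes.

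Many of those peaks lay closer to a neighbour than to the Mediator gene. For 9 of the 11 peaks at the other subunit genes the nearest protein-coding start was that of another gene, such as atx-3, which encodes the worm ataxin-3, at 63 bp for the mdt-28 peak, and apb-1, an adaptor protein gene, at 157 bp for mdt-19. The mdt-6 peak lay 4 bp from the start of Y57E12AL.6, the sop-3 peak 119 bp from that of Y71F9B.9, and the mdt-9 peak 659 bp from that of Y62E10A.20. The mdt-17 peak was nearest to prmt-1, an arginine methyltransferase gene, at 869 bp. The peaks of mdt-22 were nearest to clpp-1, a mitochondrial protease gene, at 161 bp and to nep-26, a neprilysin-family gene, at 317 bp. The exceptions were mdt-1.2 and mdt-18. These genes were also shorter than the 10, with a median span of 2508 bp. The symbol mdt-28 is in the list by name, although its product is also known as the worm perilipin. No pooled peak was assigned to let-49, mdt-8, mdt-10, mdt-11, mdt-20, mdt-21, mdt-29, mdt-30 and mdt-31, of which mdt-8 had an entry in replicate 2 only.

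**Figure D4:**
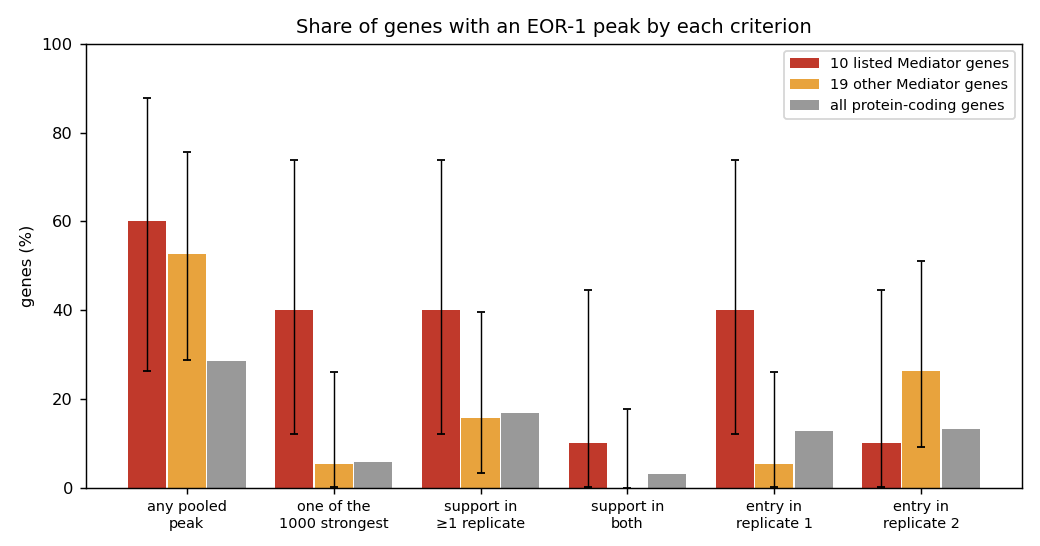
Share of genes with an EOR-1 peak by 6 criteria for the 10 listed Mediator genes, the 19 other Mediator genes and all protein-coding genes, with exact 95% intervals as error bars for the Mediator lists. The 10 genes stand at 40% for the 1000 strongest, a count that repeats how they were chosen. Their shares for support and for entries in replicate 1 partly repeat that choice too. The shares of all protein-coding genes are not limited to long ones.

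The genes most like sur-2 in their ranks were F39B2.3, which shares its peak, pqn-22 and kin-20. Likeness was the sum of the absolute differences in log10 rank over the pooled list and replicate 1, compared among 1376 protein-coding genes whose best peak had support in replicate 1 and not in replicate 2. The best peak of pqn-22 ranked 978 in the pooled list and 331 in replicate 1, and that of kin-20, a casein kinase 1 gene, ranked 916 and 265, differences of 0.0570 and 0.0680. The match describes list positions only.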

How the data were processed

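The authors deposited narrowPeak lists. By the deposited file descriptions, the list of a replicate comes from its own alignments and control data, the pooled list from the alignments of both, and the thresholded list from all of these by IDR. As to the aligner, the peak caller, versions and cut-offs, nothing is stated in the sources used here. The signal value of each peak is the deposited peak caller's own, with no stated normalization, and gave the ranks. The deposited −log10 q-value was tied at its maximum in 784 pooled peaks and served as an alternative ranking only. Lists on ce10 were not used, and the control data were not analysed here. Genes came from Ensembl release 115 on WBcel235, which is ce11, and bases from RefSeq WBcel235. Coordinates are 1-based.

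Summits were assigned, ranked and compared with Python 3.11.15, pandas 2.3.3 and scipy 1.17.1, and the assignment was tested on simulated summits. All results are descriptions and no test was run. Members and lists were chosen with earlier results of these data known. Replicate numbers are those of the labels. Signal values were compared only among pooled peaks, which include the thresholded ones, and never between the pooled list and a replicate or between replicates. All members, other subunits with a peak, genes with the nearest start and the 3 genes most like sur-2 (over the lists in which it has an entry) were named by rule. Genes named for another reason (ift-43, pacs-1, gpr-2, F40E3.3, F30F8.5 and the subunits without a peak) were named after their values were seen. Precision is set by the number of genes or peaks.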

Additional observations from a re-analysis of the deposited data

How the results depend on the processing

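No paired analysis was possible because there was 1 group. Of the counts, those at strict settings moved most. With thresholded peaks only, 0 of the 10 genes had a peak, 0 had one of the 1000 strongest and 0 had support in both replicates. Of the 19 other subunit genes 0 had a peak. The signal values fixed these zeros in advance. The weakest of the 33 thresholded peaks had 19.3, against 9.71 for the strongest at the 10 genes and 6.82 for mdt-4, the strongest at the other subunits. Without a replicate, peaks and ranks came from the list of the other one, with 2488 or 2610 entries against 6708 pooled peaks. The 1000 strongest are a larger share of those shorter lists, which gave an entry to 12.7% and 13.2% of all protein-coding genes. The genes with a peak then numbered 1 to 4 and those with one of the 1000 strongest 0 to 2. Those with replicate support numbered 1 to 4, and the other subunit genes with a peak 1 to 5. Each lower value but the last came from replicate 2 alone. With the 500 strongest, 2 genes (dpy-22 and mdt-26) had a peak, and the share of all genes was not counted at that setting. For the other subunit genes the count of 10 fell to 4 with starts within 500 bp, to 2 with the nearest start only and to 1 with the 1000 strongest peaks. In single replicates the rank of mdt-26 was 231 to 1022, of mdt-27 1840, of sur-2 302 and of rgr-1 1253. Within 50 bp of the summit 1 peak had GAGAGA, and within 200 bp 5 had GAGAGA and 3 had GACGCAG. A wider window holds more matches at any peak. The shares over all pooled peaks were counted at 100 bp only, so these counts have no reference. Ranked by q-value, with ties at the best value sharing a rank (a count added after the data were seen), 3 genes had one of the 1000 strongest, since mdt-27 stood at rank 1044, against 814 by signal value, and sur-2 at 801. In that order rgr-1 ranked 1806 and let-19 3878. The count of genes with a peak was 5 with starts within 500 bp or 1000 bp and 6 with transcript starts only or the nearest start only, and support in both replicates stayed at 1 gene with 100 bp, 500 bp or interval overlap. Depth is unknown, and a gene without an entry may still be bound.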

Other observations

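The overlap of GAGAGA and GACGCAG on 1 strand was noticed at dpy-22 and mdt-27 and then counted within 140 bp of every pooled summit. It was present at 2 of the 10 peaks at the listed genes (20%, interval 2.52 to 55.6). The counts were 40 of the 1000 strongest pooled peaks (4%, interval 2.87 to 5.41) and 76 of the 5708 weaker ones (1.33%, interval 1.05 to 1.66). No test was made, because the count was chosen after the sequences were seen.

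The dpy-22 peak was 1 of 3 among the 500 strongest pooled peaks with no entry of either replicate within 2000 bp. The others ranked 414, nearest to the start of F40E3.3, and 428, 34 bp upstream of F30F8.5. In the 201 bases around the summit, 0% of the 31-base words at dpy-22, 29.8% at F40E3.3 and 0% at F30F8.5 occurred elsewhere in the genome. How a pooled peak of this rank arises without an entry in either replicate was not tested.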
